A study of Mus musculus with 14 samples.

Results

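Tumours hold blood vessels and connective tissue as well as cancer cells, and 37 genes that mark those vessels and that tissue were followed through primary mouse small cell lung cancer. The genes were taken from a list of 15 endothelial genes, 12 fibroblast genes, 9 mural cell genes and the matrix gene Sparc, which more than 1 of these cell types makes. All 37 were found by symbol among the 23284 genes of each count file, and all 37 had enough counts to be tested. This cancer is a fast-growing neuroendocrine tumour of the lung. RNA sequencing covered 7 tumours of genotype Rb1/Trp53 (RP below) and 7 of genotype Rb1/Trp53/Crebbp (RPC below). Both groups thus lack the tumour suppressor genes Rb1 and Trp53, and the RPC tumours also lack Crebbp, which encodes a histone acetyltransferase. The labels give no age, strain, Cre driver or promoter for the deletions, and they number the tumours without saying whether these are from separate mice, so a p-value here reflects only how much the samples vary.

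Endothelial cells line blood vessels, and their identity rests on receptors for vascular growth factors (KDR, FLT1, TEK, TIE1), on junction proteins that seal the vessel wall (PECAM1, VE-cadherin from Cdh5, claudin-5) and on ETS-family transcription factors such as ERG. Mural cells, the pericytes of small vessels and the smooth muscle of larger ones, wrap the endothelium and depend on PDGF signals through PDGFRB. Fibroblasts lay down fibrillar collagens and other matrix, and many of them carry PDGFRA. Bulk RNA carries all of these cells together with the tumour cells, so a low level of a gene can come from fewer cells of a type or from less RNA per cell, and the 2 cannot be told apart here.

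RPC tumours 3, 5 and 6 stood apart from the other 11 libraries, and results are given with and without them. All 14 carry the label of primary tumour, and the labels give the same preparation for each, from lysed cells, without saying whether any was sorted or cultured. Whether the 3 tumours were prepared in another way than the rest was not tested. They had been set apart on earlier results of the same data, so they are described one by one and were never tested as a group. Counts in genes ran from 10060969 to 24052799 per library, and a count of 0 allowed a level of up to 0.314, 0.163 and 0.268 CPM (a gene's counts scaled to a common library size) in RPC tumours 3, 5 and 6, taken as 3 counts in each. These limits cover counting error only. Every CPM below uses library sizes scaled by the TMM method. Neuroendocrine genes summed to 4720, 3611 and 4751 CPM in the 3 tumours, against 2442 to 4833 CPM in the other 4 RPC tumours and 5145 to 10020 CPM in RP tumours.

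In the 3 tumours, 26 of the 37 genes were below every one of the other 11 libraries, where 9.19% of all 14804 tested genes were. The 26 were 11 of 15 endothelial genes, 7 of 12 fibroblast genes, 7 of 9 mural genes and Sparc. With a level of 0 counts raised to the 3-count limit, 15 of the 37 were at least 10-fold below every other library, against 0.979% of all tested genes. The 11 genes that were not below every other library were Kdr, Egfl7, Erg, Plvap, Col6a1, Lum, Pdgfra, Fbln1, Fstl1, Cspg4 and Mylk.

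**Figure D1:**
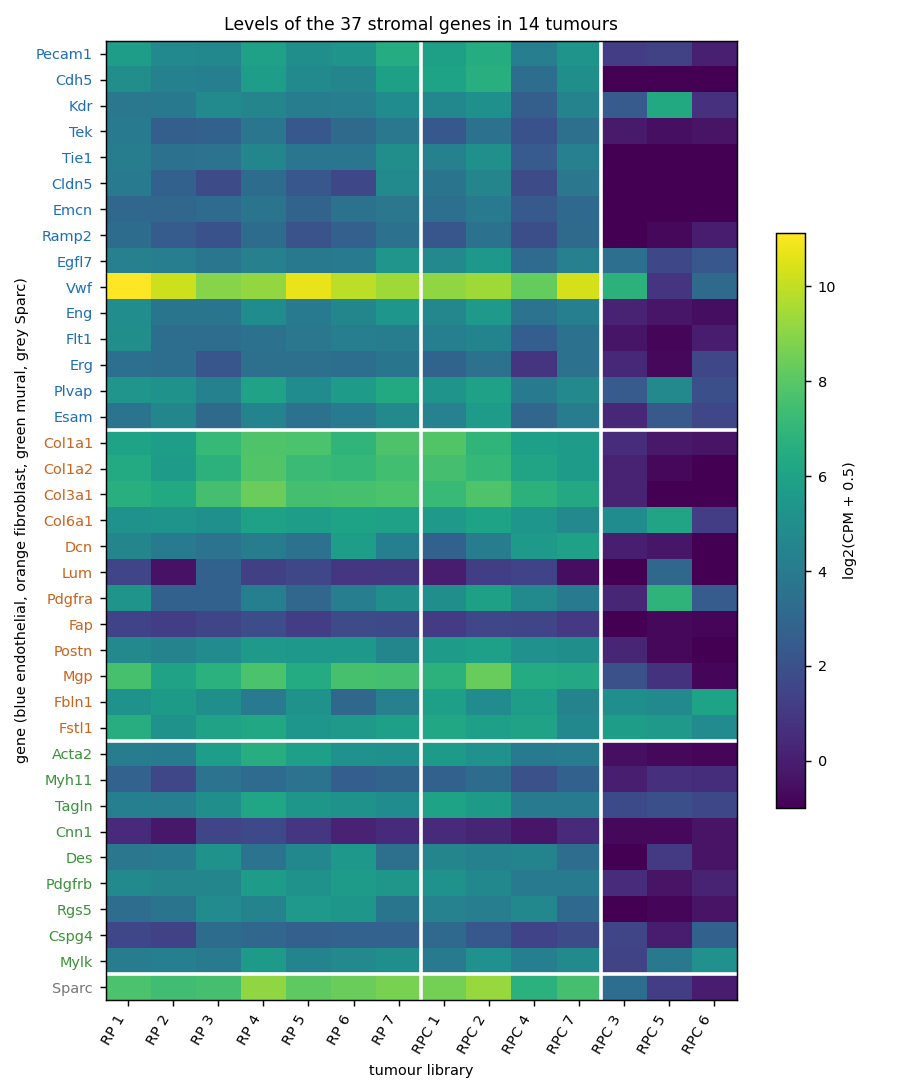
Level of each of the 37 genes (rows) in each of the 14 tumour libraries (columns) as log2(CPM + 0.5), with RP tumours on the left, RPC tumours 1, 2, 4 and 7 in the middle and RPC tumours 3, 5 and 6 on the right. Dark cells fill most of the 3 right-hand columns, with brighter exceptions such as Pdgfra and Kdr in RPC 5 and Fbln1 and Fstl1 in all 3.

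Among endothelial genes the junction gene Pecam1 was at 25.2 CPM in the lowest RP tumour, 38.4 in the median and 90.0 in the highest. RPC tumours 1, 2, 4 and 7 had 59.1, 92.1, 17.6 and 38.3 CPM. RPC tumours 3, 5 and 6 had 1.78, 2.06 and 0.54 CPM. The 3 values lay below every other library, and RPC tumour 4 was next above them. Cdh5, which encodes VE-cadherin, was at 18.6, 27.7 and 59.7 CPM in the lowest, median and highest RP tumour and at 65.6, 100.2, 10.1 and 32.8 CPM in RPC tumours 1, 2, 4 and 7. Not a single read of Cdh5 was counted in RPC tumours 3, 5 and 6, so it was at least 32.2-fold lower there than in the lowest other library.

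The same blank was seen for the receptor gene Tie1, the tight junction gene Cldn5 and the sialomucin gene Emcn. Tie1 was at 11.3 to 31.8 CPM in RP tumours (median 13.3) and at 5.05 to 33.3 CPM in the other 4 RPC tumours, Cldn5 at 2.55 to 27.1 (median 6.41) and 2.95 to 22.3 CPM, and Emcn at 6.90 to 13.4 (median 9.03) and 4.88 to 15.4 CPM. All 3 genes had 0 counts in RPC tumours 3, 5 and 6, at least 16.1-fold, 8.13-fold and 15.6-fold below the lowest other library. Ramp2, a co-receptor of the adrenomedullin receptor, was at 3.64 to 11.6 CPM in RP tumours (median 6.01), at 3.28 to 11.2 CPM in the other 4 RPC tumours and at 0, 0.11 and 0.45 CPM in the 3. Cdh5, Tie1, Cldn5 and Emcn, each counted in all of the other 11 tumours, were thus blank in 3.

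Other endothelial genes were present there. Kdr, the main VEGF receptor of vessels, was at 13.8, 18 and 29.3 CPM in the lowest, median and highest RP tumour and at 24.9, 33.1, 5.89 and 20.9 CPM in RPC tumours 1, 2, 4 and 7. In RPC tumours 3, 5 and 6 it was at 5.13, 82.8 and 1.16 CPM. RPC tumour 5 therefore had the highest Kdr of all 14 libraries, at 396% of the median of the other 11, while its Cdh5, Tie1, Cldn5 and Emcn were at 0 counts. Plvap, a protein of endothelial fenestrae, was at 5.13, 25.5 and 3.39 CPM, against 19.7 to 81.9 CPM in RP tumours (median 39.7) and 16.0 to 61.6 CPM in the other 4. Egfl7, a secreted protein of endothelial cells, was at 10.4, 2.55 and 4.37 CPM, against 13.3 to 39.2 CPM in RP (median 17.6) and 8.84 to 43.6 CPM in the other 4. Both overlapped the other libraries through 1 tumour, Plvap through RPC 5 and Egfl7 through RPC 3.

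The clotting factor gene Vwf was the most abundant endothelial gene per kilobase of exon, at a median of 42.8 CPM per kb over the 11 libraries against 19.4 for Plvap, the next. RP tumours had 494, 961 and 2248 CPM of Vwf in the lowest, median and highest library. RPC tumours 1, 2, 4 and 7 had 552, 688, 306 and 1306 CPM. RPC tumours 3, 5 and 6 had 111, 1.30 and 8.66 CPM, all below the other libraries but spread over a wide range. Per kilobase, Vwf stood at 24.3 times Pecam1 in RPC tumour 3, the highest ratio of the 14 libraries, and at 0.245 times in RPC tumour 5, the lowest. The ratio in the other libraries ran from 2.89 to 20.2. Platelets and megakaryocytes also make Vwf. Of the 5 platelet and megakaryocyte genes, 2 were below every other library in the 3 tumours and Ppbp was at 0 counts in all 3. The summed level of the 5 was 6.07, 29.8 and 4.91 CPM there, against 12.9 to 45.8 CPM in RP tumours and 12.4 to 30.0 CPM in the other 4. Gp1bb alone was at 27.0 CPM in RPC tumour 5. The part of platelets and megakaryocytes in the Vwf levels was not tested.

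Of the 5 endothelial genes not given one by one, the TGF-beta co-receptor gene Eng, the VEGF receptor gene Flt1, the angiopoietin receptor gene Tek and the adhesion gene Esam were below every other library in the 3 tumours. Erg, the ETS factor, was not, at 0.84, 0.11 and 2.50 CPM against 1.35 CPM in RPC tumour 4, the lowest of the others. Tek was at 0.42, 0.22 and 0.27 CPM there. The next lines show the promoters of 3 vascular receptor and co-receptor genes that were near the counting limit in the 3 tumours (Tie1, Eng, Flt1) beside that of Kdr, which was not. These 4 were chosen because they hold an ETS motif, and the promoter of Tek, which holds 0 copies, is not shown. They run from 250 bases before to 50 bases after the gene start, are from RefSeq on GRCm38.p6, and are printed on the strand of the gene with GGAAGT, a common ETS factor motif, in capitals (ACTTCC is the same motif on the opposite strand).
Kdr: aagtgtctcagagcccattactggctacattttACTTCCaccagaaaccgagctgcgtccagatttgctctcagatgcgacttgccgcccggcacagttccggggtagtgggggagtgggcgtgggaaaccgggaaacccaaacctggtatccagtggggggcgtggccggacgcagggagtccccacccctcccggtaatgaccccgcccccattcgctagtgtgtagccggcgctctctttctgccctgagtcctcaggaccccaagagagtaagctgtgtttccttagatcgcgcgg
Tie1: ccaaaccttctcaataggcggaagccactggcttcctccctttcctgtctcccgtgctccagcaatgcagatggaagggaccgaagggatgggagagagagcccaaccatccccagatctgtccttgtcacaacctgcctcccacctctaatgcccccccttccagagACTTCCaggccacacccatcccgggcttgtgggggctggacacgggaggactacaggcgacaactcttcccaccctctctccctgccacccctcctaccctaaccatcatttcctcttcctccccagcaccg
Eng: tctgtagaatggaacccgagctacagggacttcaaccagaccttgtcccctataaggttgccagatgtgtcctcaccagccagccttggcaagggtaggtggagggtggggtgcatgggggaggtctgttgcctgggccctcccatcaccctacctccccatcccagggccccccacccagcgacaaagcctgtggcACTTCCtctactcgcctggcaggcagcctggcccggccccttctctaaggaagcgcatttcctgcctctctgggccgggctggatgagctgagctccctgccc
Flt1: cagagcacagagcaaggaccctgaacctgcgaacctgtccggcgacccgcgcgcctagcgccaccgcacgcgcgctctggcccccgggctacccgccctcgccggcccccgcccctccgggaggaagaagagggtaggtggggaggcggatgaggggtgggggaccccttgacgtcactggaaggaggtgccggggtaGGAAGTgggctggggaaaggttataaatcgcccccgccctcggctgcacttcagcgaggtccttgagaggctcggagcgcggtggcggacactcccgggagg
These lie at chr5:75978406-75978705 (minus strand), chr4:118489800-118490099 (minus), chr2:32646345-32646644 (plus) and chr5:147725962-147726261 (minus). Each of the 4 holds GGAAGT once on either strand, starting 217, 82, 53 and 52 bases before the gene start. Promoters were found for 23 of the 37 genes. The motif was in 6 of 13 endothelial promoters (46.2%), 2 of 9 fibroblast promoters and 0 of 6 mural promoters, where 23.8% of 32851 mouse promoters of the same length hold it. The 13 endothelial promoters are of 9 genes and the 9 fibroblast promoters of 7 genes. A gene with more than 1 promoter, such as Egfl7 or Erg, is counted once for each. Kdr and Tie1 both carry it, and their levels in RPC tumour 5 were 82.8 CPM and 0 counts. Whether the motif bears on these levels was not tested. The promoters differ in CG pairs, with 19 for Kdr, 7 for Tie1, 6 for Eng and 29 for Flt1, where the median of all promoters is 7. A match is a description of the letters and not a measured binding site.

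Chains of type I and type III collagen were low in the 3 tumours. Of the type V chain genes, Col5a2 was low as well, at 0.31, 0.27 and 0 CPM in them, against 29.9 to 100 CPM in RP tumours. Col5a3 was at 1.05, 0.16 and 1.96 CPM, against 4.41 to 53.9 CPM in RP tumours. Col5a1 was less low, at 4.92, 3.69 and 14.1 CPM. It was at 8.16 to 34.7 CPM in RP tumours and 12.1 to 43.7 CPM in the other 4 RPC tumours. Col1a1, a chain of type I collagen, was at 54.9, 142 and 223 CPM in the lowest, median and highest RP tumour. It was at 229, 122, 57.1 and 50.8 CPM in RPC tumours 1, 2, 4 and 7 and at 0.94, 0.38 and 0.27 CPM in RPC tumours 3, 5 and 6. Col1a2, the other type I chain, was at 51.3, 137 and 229 CPM in RP, at 49.5 to 185 CPM in the other 4 RPC tumours and at 0.63, 0.11 and 0 CPM in the 3. Col3a1, type III collagen, was at 83.5, 189 and 331 CPM in RP, at 79.3 to 219 CPM in the other 4 and at 0.63, 0 and 0 CPM in the 3. The 3 tumours and the other 11 did not overlap for any of the 3 collagens, and no value in the 3 tumours reached 1% of the median of the 11.

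Secreted matrix proteins of fibroblasts were low as well. The proteoglycan gene Dcn was at 11 to 52.9 CPM in RP tumours (median 16.7), at 6.40 to 61.0 CPM in the other 4 RPC tumours and at 0.52, 0.33 and 0 CPM in the 3. Postn, which encodes periostin, was at 21.1 to 46.1 CPM in RP (median 28.3), at 32.5 to 56.7 CPM in the other 4 and at 0.73, 0.11 and 0 CPM in the 3. Fap, a surface protease of activated fibroblasts, was at 1.81 to 3.19 CPM in RP (median 2.40), at 1.54 to 2.47 CPM in the other 4 and at 0, 0.11 and 0.09 CPM in the 3. Mgp, a matrix inhibitor of calcification, was the most abundant fibroblast gene per kilobase in the 11 libraries and was below all of them in the 3.

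The other 5 fibroblast genes were not low together, and each had its own pattern. Pdgfra, the receptor for PDGF-A, was at 6.23, 17.5 and 39.0 CPM in the lowest, median and highest RP tumour and at 32.1, 58.5, 26.9 and 15.1 CPM in RPC tumours 1, 2, 4 and 7. It was at 0.73, 117 and 5.26 CPM in RPC tumours 3, 5 and 6, so RPC tumour 5 had 637% of the median of the 11 and the highest level of all. Lum, which encodes lumican, was at 0.26 to 6.21 CPM in RP (median 1.97), at 0.18 to 2.19 CPM in the other 4 and at 0, 8.02 and 0 CPM in the 3. Col6a1, a chain of type VI collagen, was at 33.5 to 64.5 CPM in RP (median 55.7), at 26.1 to 66.2 CPM in the other 4 and at 29.5, 68.4 and 1.79 CPM in the 3. RPC tumour 5 had the highest level of all 14 libraries for Kdr, Pdgfra, Lum and Col6a1.

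Fbln1, the matrix protein fibulin-1, was at 7.70 to 48.1 CPM in RP tumours (median 32.3), at 20.8 to 58.1 CPM in the other 4 RPC tumours and at 32.6, 26.3 and 65.0 CPM in the 3, the last being the highest of the 14. Fstl1, a secreted follistatin-like protein, was at 35.4 to 92.6 CPM in RP (median 57.7), at 24.8 to 75.3 CPM in the other 4 and at 56.1, 44.6 and 28.6 CPM in the 3. All 3 tumours lay within the range of the other 11 for Fstl1, and RPC tumours 3 and 5 did so for Fbln1. These 2 genes of the fibroblast list were therefore present at ordinary levels in tumours whose type I and type III collagen was near the counting limit.

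Pdgfra and Kdr are neighbours on mouse chromosome 5, with only the receptor gene Kit between them in the RefSeq gene order of GRCm38.p6. Kit was looked at after these values were seen. In RPC tumour 5 it was at 39.1 CPM, the lowest of the 14 libraries, against 89.7 to 257 CPM in the others (median 124). On the Pdgfra side, Chic2 was at 60.3 CPM (31.2 to 57.9 CPM in the other 13 libraries) and Gsx2 at 0.22 CPM (0 to 0.14 CPM). Both were highest in RPC tumour 5, but Gsx2 lay close to the counting limit of 0.163 CPM there. Lnx1 was at 44.9 CPM (13.8 to 45.3 CPM in the others, median 25.35), Fip1l1 at 135 CPM (91.1 to 150 CPM) and Scfd2 at 11.2 CPM (15.2 to 27.25 CPM). Past Kdr, Srd5a3 was at 13.4 CPM (10.7 to 26.2 CPM), Tmem165 at 50.3 CPM (40.6 to 85.0 CPM) and Clock at 126 CPM (64.2 to 142 CPM). The cause of the high Pdgfra and Kdr levels in RPC tumour 5 was not tested.

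**Figure D2:**
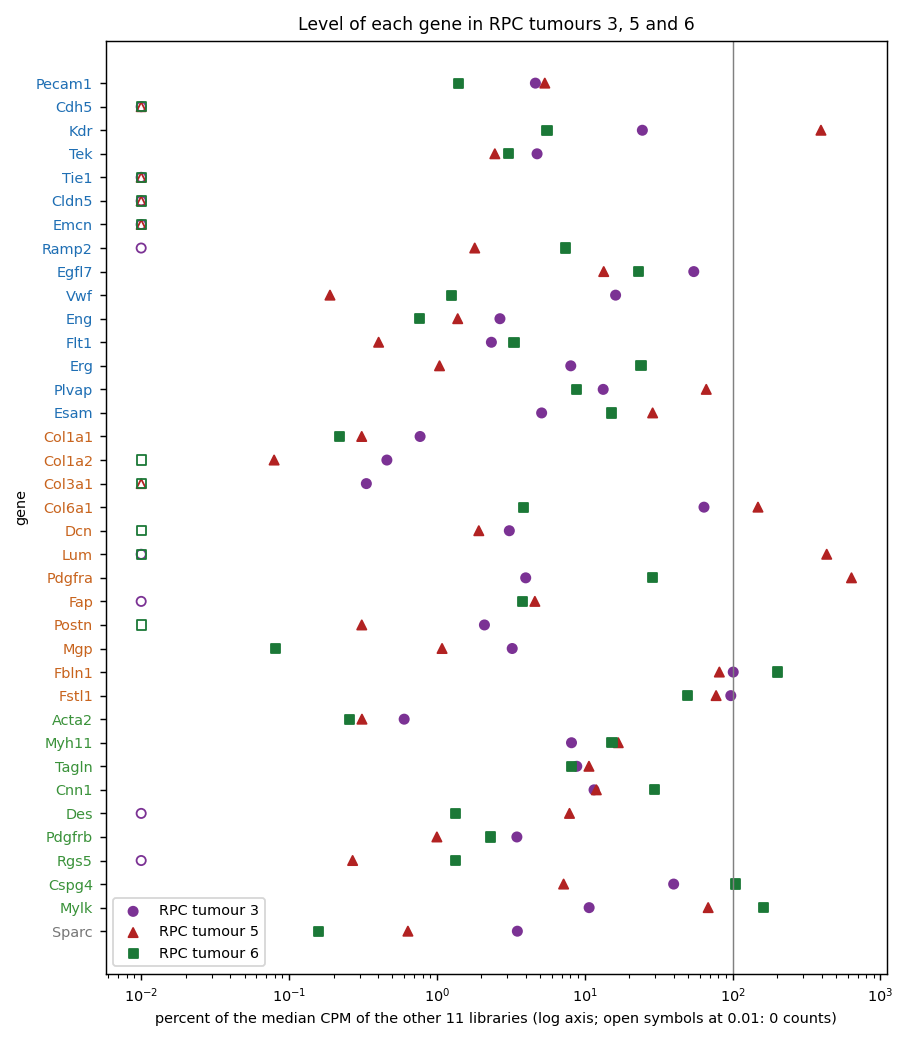
Level of each gene in RPC tumours 3 (circles), 5 (triangles) and 6 (squares) as a percent of its median over the other 11 libraries, on a log axis, with open symbols at 0.01 where 0 counts were found. Cdh5, Tie1, Cldn5 and Emcn have open symbols in all 3 tumours, while Pdgfra (637%), Lum (433%) and Kdr (396%) lie to the right of the line at 100% in RPC tumour 5.

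Mural genes split in the same way. Acta2, smooth muscle actin, was at 15.8, 37.5 and 93.9 CPM in the lowest, median and highest RP tumour, at 49.1, 34.8, 16.0 and 17.4 CPM in RPC tumours 1, 2, 4 and 7 and at 0.21, 0.11 and 0.09 CPM in RPC tumours 3, 5 and 6. Myh11, the smooth muscle myosin heavy chain, was at 2.46 to 12 CPM in RP (median 6.96), at 3.53 to 9.43 CPM in the other 4 and at 0.52, 1.08 and 0.98 CPM in the 3. Tagln, the actin-binding protein transgelin, was at 17.7 to 71.3 CPM in RP (median 32.0), at 14.8 to 65.4 CPM in the other 4 and at 2.82, 3.41 and 2.59 CPM in the 3. None of the 3 genes overlapped between the 3 tumours and the other 11. Acta2 was under 1% of the median of the 11 in each, whereas Tagln was between 8.09% and 10.7%.

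The pericyte gene Rgs5, a regulator of G protein signalling, was at 9.68 to 46.5 CPM in RP tumours (median 20.7), at 8.23 to 24.8 CPM in the other 4 RPC tumours and at 0, 0.05 and 0.27 CPM in the 3. Des, the intermediate filament desmin, was at 10.6 to 43.3 CPM in RP (median 14.7), at 9.68 to 22.5 CPM in the other 4 and at 0, 1.57 and 0.27 CPM in the 3. Pdgfrb, the receptor that pericytes need, and Cnn1, which encodes calponin, were below every other library in the 3. Cspg4, the pericyte proteoglycan NG2, was at 2.11 to 9.36 CPM in RP (median 6.47), at 2.19 to 8.46 CPM in the other 4 and at 2.41, 0.43 and 6.34 CPM in the 3. Mylk, the myosin light chain kinase, was at 14.9 to 49.1 CPM in RP (median 21.5), at 15.7 to 34.7 CPM in the other 4 and at 2.30, 14.7 and 34.8 CPM in the 3. RPC tumour 6 thus lay within the range of the others for Cspg4 and Mylk, and Mylk made up 75.3% of its summed mural level.

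Sparc, a collagen-binding matrix protein made by endothelial and mesenchymal cells alike, was at 170, 281 and 550 CPM in the lowest, median and highest RP tumour. It was at 392, 605, 106 and 187 CPM in RPC tumours 1, 2, 4 and 7. RPC tumours 3, 5 and 6 had 9.83, 1.79 and 0.45 CPM. The last 3 were below every other library.

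The 3 tumours differed in which genes were low. RPC tumour 3 had 32 of 37 genes below all of the other 11 libraries, 9 of them at 0 counts, and 0 genes above every other library. RPC tumour 5 had 30 below, 5 at 0 counts, and 4 above every one of the other 13. RPC tumour 6 had 32 below, 9 at 0 counts, and 1 above. Of all tested genes, 19.8%, 22.1% and 20.0% were below the other 11 in these 3 libraries.

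Markers of other cell types were low in the same libraries. All 10 macrophage and monocyte genes were below every other library in the 3 tumours. Their summed level was 4.92, 8.51 and 8.03 CPM, against 572 to 1539 CPM in RP tumours and 499 to 2079 CPM in the other 4 RPC tumours, and Emr1 was at 0 counts in all 3. Of 8 T and NK cell genes, 5 were below every other library and Cd3e, Nkg7 and Gzmb were at 0 counts in the 3 tumours (summed level 0.27 to 0.71 CPM there, 2.82 to 64.4 CPM in RP and 4.04 to 18.8 CPM in the other 4). Of 6 erythroid genes 2 were below every other library, and the list summed to between 0.54 and 0.98 CPM, with Hbb-b1 and Hbb-b2 at 0 counts, against 2.32 to 46.2 CPM in RP and 5.73 to 16.2 CPM in the other 4. All 5 mesothelial genes were below every other library (0.36 to 3.56 CPM in sum, 7.32 to 32.9 CPM in RP and 11.9 to 75.7 CPM in the other 4). Of 4 adipocyte genes 1 was below every other library, and the list summed to 0.05 to 0.94 CPM in the 3 tumours, with Cfd and Plin1 at 0 counts, against 9.91 to 35.2 CPM in RP and 5.25 to 163 CPM in the other 4.

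Not every summed level followed. Of 5 neutrophil genes 3 were below every other library, and the list summed to 8.48 to 9.73 CPM in the 3 tumours, with S100a8, S100a9 and Retnlg at 0 counts, against 7.95 to 40.2 CPM in RP tumours and 10.6 to 21.4 CPM in the other 4. Cxcr2 made up most of it there, at 8.89, 8.24 and 8.39 CPM, and was at 4.88 to 19.7 CPM in the other 11. Schwann cell and glial genes summed to 149, 91.1 and 266 CPM, with Sox10 at 0 counts, against 121 to 329 CPM in RP and 135 to 205 CPM in the other 4. Mbp alone was at 145, 88.1 and 262.5 CPM in the 3 tumours. Lymphatic endothelial genes summed to 115, 183 and 0.36 CPM against 126 to 391 CPM in RP and 188 to 252 CPM in the other 4. Nearly all of this was Prox1, which was at 114, 182 and 0.09 CPM, while Lyve1, Flt4 and Pdpn were below every other library. Proliferation genes summed to 2346, 2621 and 2980 CPM, against 1703 to 3429 CPM in RP and 1867 to 2277 CPM in the other 4. Alveolar type 2 genes summed to 10.8, 19.6 and 9.10 CPM, with Sftpd and Lamp3 at 0 counts, but RPC tumour 4 had only 7.24 CPM, against 60.6 to 1472 CPM in RP. The remaining lists overlapped in part between the 3 tumours and the other 11. Alveolar type 1 genes summed to 47.8 to 58.2 CPM in the 3 (68.9 to 250 CPM in RP, 37.4 to 551 CPM in the other 4). Ciliated genes summed to 21.3 to 46.4 CPM (32.05 to 114 and 52.3 to 77.1 CPM). Striated muscle genes summed to 0.89 to 2.93 CPM, with Tnnt3 at 0 counts (3.05 to 68.3 and 2.38 to 31.6 CPM). Club genes were at 30.0, 1.19 and 23.3 CPM (23.15 to 2449 and 28.55 to 2231 CPM). RPC tumour 5 was thus below all of the other 11 for club genes, and Scgb1a1 was below every other library in the 3. Of the genes named here at 0 counts in the 3 tumours, Gzmb, Hbb-b2, Cfd, Plin1, Retnlg, Sox10 and Tnnt3 were also at 0 counts in at least 1 of the other 11, and Hba-a1, Hba-a2 and Ccl21a had 0 counts in all 14. The part of these cells in the levels of the 37 genes was not tested.

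Summed over its genes, each compartment also differed among the other 11 tumours. Endothelial genes without Vwf, which otherwise made up 55.5% to 89.2% of the sum in these 11, came to 174 to 494 CPM in RP tumours. RPC tumours 1, 2, 4 and 7 had 335, 552, 104 and 253 CPM, and RPC tumours 3, 5 and 6 had 25.4, 118 and 15.8 CPM. RPC tumour 5 was above RPC tumour 4 on this sum only through Kdr, which made up 69.9% of it. Fibroblast genes came to 420 to 1228 CPM in RP tumours, to 945, 1080, 597 and 441 CPM in the other 4 RPC tumours and to 126, 267 and 101 CPM in the 3. Mural genes came to 107 to 316 CPM in RP, to 225, 195, 118 and 105 CPM in the other 4 and to 9.31, 21.7 and 46.2 CPM in the 3. The fibroblast and mural sums of the 3 tumours did not overlap those of the other 11.

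**Figure D3:**
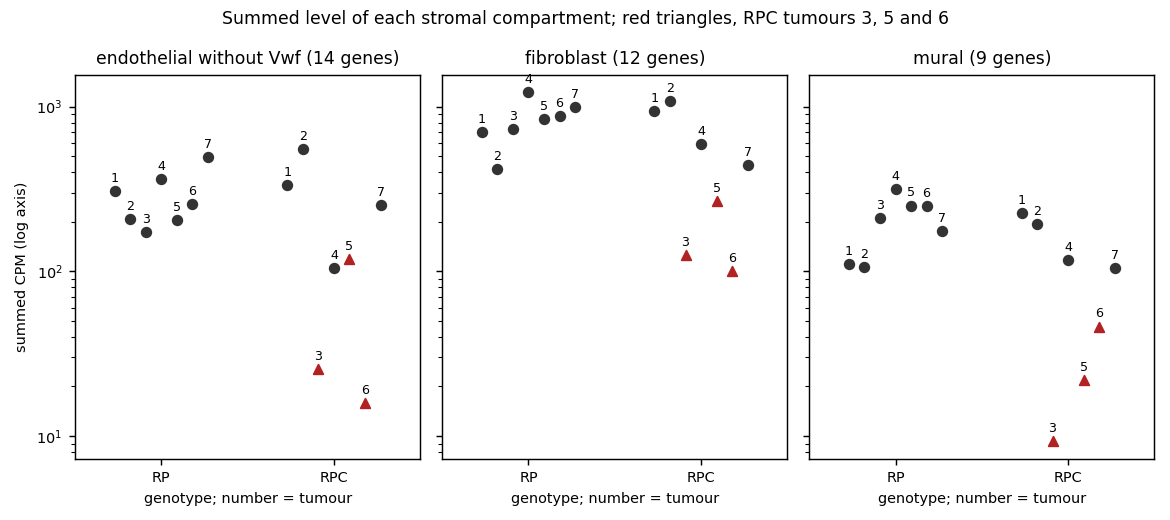
Summed CPM of 14 endothelial genes (Vwf left out), 12 fibroblast genes and 9 mural genes in each tumour, on a log axis, with RP tumours on the left and RPC tumours on the right of each panel and the tumour number beside each point. Red triangles mark RPC tumours 3, 5 and 6, which lie lowest in the fibroblast and mural panels, while in the endothelial panel RPC 5 (118 CPM) lies just above RPC 4 (104 CPM).

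RPC tumour 4 was low mainly in endothelial genes. It was below every RP tumour for 14 of 15 endothelial genes, with Cldn5 as the exception (2.95 CPM against 2.55 CPM in the lowest RP tumour), but for 0 of 12 fibroblast genes and 3 of 9 mural genes. Of all tested genes, 16.2% were below every RP tumour in this library. It was above every RP tumour for Fbln1 alone, where 15.2% were. RPC tumour 2 was at the other end, above every RP tumour for 8 of 15 endothelial genes (Pecam1, Cdh5, Kdr, Tie1, Emcn, Egfl7, Eng and Esam), 4 of 12 fibroblast genes and 0 of 9 mural genes, where 11% of all tested genes were. It was below every RP tumour for 0 of the 37 genes, where 12.1% were. RPC tumour 7 was below every RP tumour for 7 of 12 fibroblast genes, 4 of 9 mural genes and 0 of 15 endothelial genes, where 8.75% of all tested genes were. Dcn alone was above every RP tumour there, where 8.71% were. RPC tumour 1 lay within the RP range for 30 of the 37 genes, with 3 below and 4 above, where 13.7% and 14% of all tested genes were. These patterns within the RPC group were noticed in the data and were not tested.

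The design asks which genes differ between RP and RPC tumours. For the 37 genes no difference passed the test, and the spread within the RPC group was wide. edgeR's quasi-likelihood test with Benjamini-Hochberg adjustment over all tested genes called 0 of the 37, where 2.21% of all tested genes were called. The adjusted p ran from 0.17 for Cnn1 to 0.948 for Cdh5. At an unadjusted p under 0.05 the count was 1 of 37, Cnn1, where 21.3% of all tested genes passed. DESeq2 and limma-voom also called 0 of the 37, although limma-voom put 25 of them at an unadjusted p under 0.05, with a median log2 fold change of -2.39. Negative log2 fold changes, RPC over RP, were found for 34 of 37 genes with a median of -0.74, where 49.8% of all tested genes were negative. The 3 positive ones were Kdr (0.29, SE 0.64), Pdgfra (1.01, SE 0.76) and Fbln1 (0.56, SE 0.38).

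By compartment, 14 of 15 endothelial genes (median -0.74), 10 of 12 fibroblast genes (median -0.37) and 9 of 9 mural genes (median -1.04) had negative values, with 0 called in each. Pecam1 was at 46.8 ± 23.4 over RP and 30.2 ± 35.1 CPM over RPC tumours (n = 7 each, SD; log2 fold change -0.63 with SE 0.83; edgeR, adjusted p = 0.68). Col1a1 was at 146 ± 69.8 and 65.9 ± 84.7 CPM (-1.15, SE 1.03, adjusted p = 0.541). Acta2 was at 44.2 ± 27.4 and 16.8 ± 19.2 CPM (-1.39, SE 1.0, adjusted p = 0.44). For each of these the SD within RPC tumours was larger than their mean. Cnn1 was at 1.32 ± 0.90 and 0.48 ± 0.36 CPM (-1.45, SE 0.58). Pdgfrb was at 36.4 ± 12.4 and 13.6 ± 13.9 CPM (-1.42, SE 0.80, adjusted p = 0.325), with 7 of 7 RPC tumours below the RP median and 5 of 7 below every RP tumour.

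Without RPC tumours 3, 5 and 6, edgeR again called 0 of the 37, where 0.0716% of 15358 tested genes were called, and 0 of the 37 had an unadjusted p under 0.05, where 11.9% of tested genes did. Negative values were then found for 22 of 37 genes, with a median of -0.10, where 51.0% of tested genes were negative. Among endothelial genes 7 of 15 were negative, among fibroblast genes 7 of 12 and among mural genes 8 of 9. The log2 fold change of Pecam1 was 0.15 (SE 0.43), that of Col1a1 -0.34 (SE 0.48), that of Acta2 -0.59 (SE 0.50) and that of Pdgfrb -0.63 (SE 0.32, edgeR adjusted p = 0.464). The median of endothelial genes moved from -0.74 to 0.06 and that of mural genes from -1.04 to -0.35. A p that misses the threshold does not show that the genotypes are alike in these genes.

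**Figure D4:**
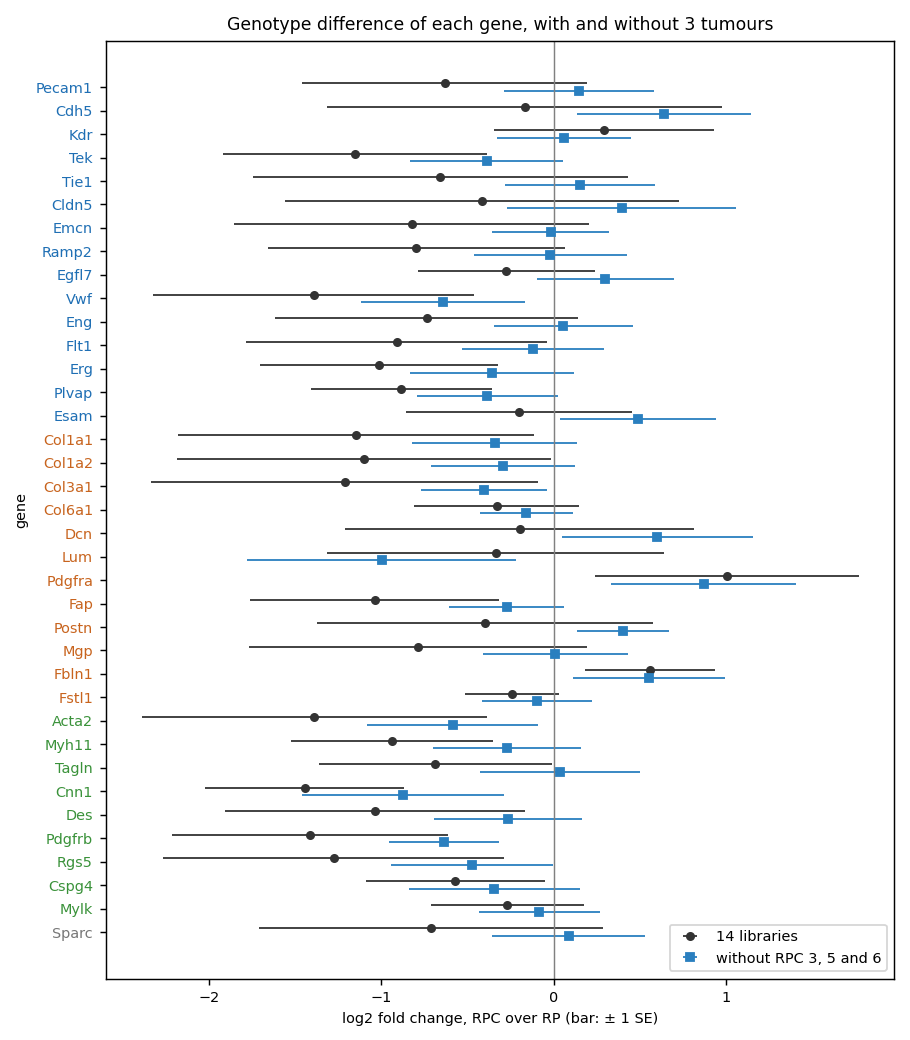
Log2 fold change of each gene, RPC over RP, with bars of 1 SE, over all 14 libraries (black circles) and without RPC tumours 3, 5 and 6 (blue squares). The black circles lie left of 0 for 34 of 37 genes and the blue squares for 22, and 0 of the 37 genes passed the test in either fit.

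Among the 11 libraries outside RPC tumours 3, 5 and 6, relations were computed for 39 gene pairs on log2(CPM + 0.5), each compartment's first gene against the rest of its list and against the first genes of the other lists and Sparc, with 100000 permutations and Benjamini-Hochberg adjustment over the 39. Pecam1 followed Cdh5 closely (n = 11, Pearson r = 0.95, adjusted permutation p = 0.000156; Spearman rho = 0.93, adjusted p = 0.00078; r = 0.94 without the 2 libraries farthest from the median of Pecam1; r = 0.94 within the 7 RP tumours). By Spearman's rho, Pecam1 with Kdr, Tek and Erg missed the adjusted threshold (adjusted permutation p = 0.0684, 0.0631 and 0.0551). Pearson's r of Pecam1 passed it with 13 of the other 14 endothelial genes, Kdr, Tek and Erg among them. The exception was Vwf (n = 11, r = 0.12, adjusted permutation p = 0.747; rho = 0.12, adjusted p = 0.753; r = 0.33 without the 2 farthest libraries; r = -0.11 within RP).

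Of 11 relations of Col1a1 to other fibroblast genes, 3 passed by Pearson's r, those with Col1a2, Col3a1 and Col6a1. That with Col6a1 passed by r alone (n = 11, r = 0.66, adjusted permutation p = 0.0453; rho = 0.48, adjusted p = 0.185; r = 0.47 without the 2 farthest libraries; r = 0.66 within RP). Col1a1 and Col1a2, whose products form the same collagen, had r = 0.96 (n = 11, adjusted permutation p = 0.000156; rho = 0.95, adjusted p = 0.00065; r = 0.94 without the 2 farthest libraries; r = 0.94 within RP). Dcn had r = -0.65 to Col1a1 (n = 11, adjusted permutation p = 0.0515; rho = -0.65, adjusted p = 0.0657; r = -0.67 without the 2 farthest; r = -0.24 within RP), which missed the threshold. RPC tumours 4 and 7 and RP tumour 6 had the highest Dcn, at 45.7, 61.0 and 52.9 CPM, and RPC tumour 1, with the highest Col1a1, had the lowest Dcn of the 11, at 6.40 CPM.

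Of 8 relations of Acta2 to other mural genes, 5 passed by Pearson's r, among them that with Tagln (n = 11, r = 0.91, adjusted permutation p = 0.00202; rho = 0.84, adjusted p = 0.00847; r = 0.86 without the 2 farthest; r = 0.96 within RP). That with Pdgfrb passed by r alone (r = 0.70, adjusted permutation p = 0.0332, against rho = 0.63, adjusted permutation p = 0.0688). Across compartments, Col1a1 followed Acta2 (n = 11, r = 0.90, adjusted permutation p = 0.00229; rho = 0.77, adjusted p = 0.0211; r = 0.86 without the 2 farthest; r = 0.87 within RP). Pecam1 with Col1a1 (n = 11, r = 0.50, adjusted permutation p = 0.161; rho = 0.51, adjusted p = 0.166; r = 0.47 without the 2 farthest; r = 0.40 within RP) missed the threshold, as did Pecam1 with Acta2 (n = 11, r = 0.31, adjusted permutation p = 0.385; rho = 0.26, adjusted p = 0.472; r = 0.41 without the 2 farthest; r = 0.08 within RP). Sparc had r = 0.87 to Pecam1 (n = 11, adjusted permutation p = 0.00351; rho = 0.91, adjusted p = 0.00265; r = 0.82 without the 2 farthest; r = 0.72 within RP). It also passed with Col1a1 (r = 0.74, adjusted permutation p = 0.0213, and rho = 0.73, adjusted permutation p = 0.0335). With Acta2 it passed by r alone (r = 0.68, adjusted permutation p = 0.0387, against rho = 0.59, adjusted permutation p = 0.0917).

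Other genes of the same pathways were read from 8 further lists of 103 genes, 98 of them tested. RPC tumours were lower in Pdgfa, which encodes the PDGF-A ligand of PDGFRA, and in Ets1, an ETS transcription factor of endothelial and other cells. These 2 were the only called genes of the 98, and 0 were called higher, where 1.12% of all tested genes were called lower and 1.09% higher. Pdgfa was at 32.0, 36.1 and 41.0 CPM in the lowest, median and highest RP tumour and at 11.6, 16.8, 14.5, 11, 3.25, 15.1 and 18.8 CPM in RPC tumours 1 to 7. Every RPC tumour was below every RP tumour, as for 0.635% of all tested genes. The means were 36.1 ± 3.85 and 13.0 ± 5.09 CPM (n = 7 each, SD; log2 fold change -1.47 with SE 0.28; edgeR, adjusted p = 0.0244). Pdgfa stayed called without RPC tumours 3, 5 and 6 (-1.31, SE 0.20, adjusted p = 0.0427), but the call did not survive leaving out RP tumour 6 alone (adjusted p = 0.0541) or RPC tumour 3 alone (0.0513).

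Ets1 was at 41.9 to 119 CPM in RP tumours and at 34.3, 50.7, 22.4, 28, 17.0, 40.0 and 46.4 CPM in RPC tumours 1 to 7, with 5 of 7 below every RP tumour. The means were 80.8 ± 30.0 and 34.1 ± 12.4 CPM (n = 7 each, SD; log2 fold change -1.24 with SE 0.28; edgeR, adjusted p = 0.0388). The call was lost without RPC tumours 3, 5 and 6 (-1.02, SE 0.31, adjusted p = 0.207), and without any 1 of RP tumours 1, 2, 6 and 7 or RPC tumours 1, 3, 4, 5 and 6 (adjusted p from 0.0511 to 0.0767). In the same list of 14 transcription and Notch genes, 10 had negative values. The Notch ligand gene Jag2 was at 298 ± 77.1 and 147 ± 64.6 CPM (SD, n = 7 each; -1.02, SE 0.26, edgeR adjusted p = 0.0554) and the ETS factor gene Fli1 at 13.1 ± 7.12 and 39.3 ± 27.0 CPM (1.59, SE 0.49, adjusted p = 0.0936), so that neither passed. DESeq2 called both (adjusted p = 0.00456 for Jag2 and 0.0165 for Fli1), limma-voom called Jag2 (adjusted p = 0.034), and edgeR called Jag2 without any 1 of RP tumour 3 and RPC tumours 1 and 7 (adjusted p from 0.0231 to 0.0456) and Fli1 without RPC tumour 7 (0.0279).

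Among the other ligands no difference passed with edgeR over all 14 libraries. Pdgfb, the ligand of PDGFRB, was at 10.9 to 65.9 CPM in RP tumours and 0 to 28.2 CPM in RPC tumours (log2 fold change -1.40 with SE 0.89; edgeR, adjusted p = 0.385), and Pdgfc had a value of 0.06 (SE 0.54). Of the 13 VEGF and angiopoietin ligands and co-receptors 6 had negative values, and those with the smallest p were Vegfb, Angpt1 and Pgf. Vegfb, a ligand of FLT1, was at 27.2 ± 8.55 and 55.0 ± 20.5 CPM (SD, n = 7 each; 1.01, SE 0.26, edgeR adjusted p = 0.0529), with 4 of 7 RPC tumours above every RP tumour. Vegfb was called with DESeq2 (adjusted p = 0.00669) and by edgeR without any 1 of RP tumours 3 and 7 or RPC tumours 1 and 7 (adjusted p from 0.034 to 0.048). Angpt1, the TEK ligand of mural cells, had a value of 1.25 (SE 0.60, adjusted p = 0.245). Pgf, placental growth factor, had a value of -1.03 (SE 0.60, adjusted p = 0.34).

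**Figure D5:**
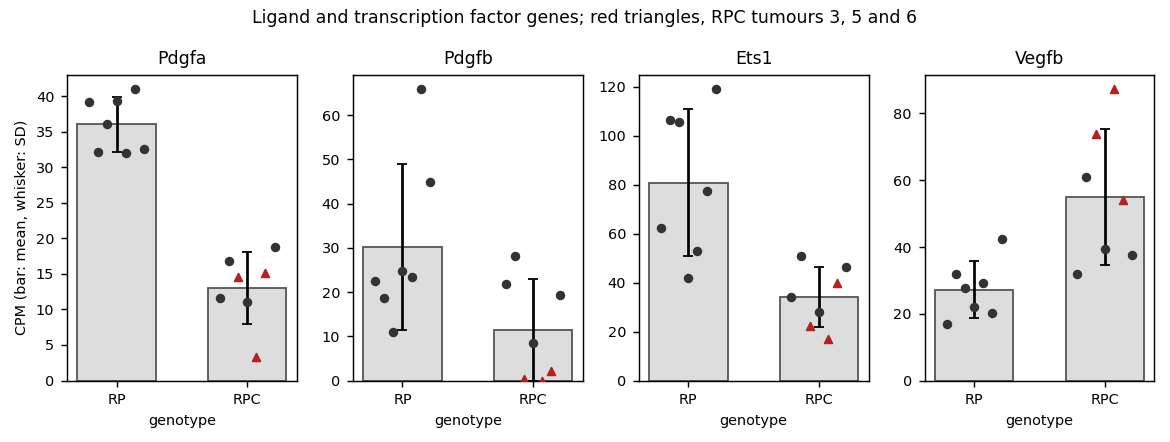
CPM of Pdgfa, Pdgfb, Ets1 and Vegfb in 7 RP and 7 RPC tumours, as bars for the mean, whiskers for the SD and a point for each tumour, with RPC tumours 3, 5 and 6 as red triangles. For Pdgfa every RPC tumour (3.25 to 18.8 CPM) lies below every RP tumour (32.0 to 41.0 CPM), and the red triangles lie at the bottom for Pdgfb.

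The remaining lists held 0 called genes (edgeR, adjusted over all tested genes). Of 15 tested endothelial surface genes 13 had negative values, with the smallest p for Selp (-1.45, SE 0.73), Car4 (-1.21, SE 0.78) and Ednrb (-0.95, SE 0.69). Of 23 other collagens and matrix genes 20 were negative and 2 of them had an unadjusted p under 0.05, Serpinf1 (-1.21, SE 0.46, adjusted p = 0.15) and Fn1, fibronectin (-1.16, SE 0.47, adjusted p = 0.179), followed by Col5a3 (-1.61, SE 0.76). Of 11 other lung fibroblast genes 8 were negative, with the smallest p for Thy1 (-1.0, SE 0.44, adjusted p = 0.21), Gsn (-0.72, SE 0.46) and Mfap5 (-1.22, SE 1.04). Of 9 smooth muscle genes 6 were negative, led by Smtn (-0.71, SE 0.25, adjusted p = 0.131), Actg2 (-1.39, SE 0.90) and Myl9 (-0.96, SE 0.68). Of 10 pericyte genes 8 were negative, led by Anpep (-1.83, SE 0.64, adjusted p = 0.125, and 0.0309 with DESeq2, which called it), Notch3 (-1.35, SE 0.69) and Abcc9 (-0.92, SE 0.71). Over all 98 genes 73 were negative, with a median of -0.47, and without RPC tumours 3, 5 and 6 the count was 48 of 99 with a median of 0.01.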

How the data were processed

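For each tumour the authors deposited read counts per gene symbol, without normalization. The tools named in the submitters' processing notes are HTSeq 0.6.1, TopHat2 2.0.12 and bcl2fastq 1.8.2, and the build is mm9. Sources used here do not give strand use or gene annotation, so overlapping antisense genes cannot be told apart. Per the labels' protocols, RNA was selected with oligo-dT beads.

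The 5 rows that name no gene were left out of library sizes and tests (15.1% to 20.5% of counts fell outside genes). No 2 libraries of 1 genotype were repeats (chi-square per degree of freedom at least 59.2 over 42 pairs). Counts were tested in R 4.3.3 with edgeR 4.0.16 (filterByExpr, TMM factors from 0.906 to 1.08, quasi-likelihood F test between RPC and RP without covariates, Benjamini-Hochberg adjusted p under 0.05 over all 14804 tested genes). SE is the size of the log2 fold change divided by the root of F. The fit was tested on simulated data. Alternatives were RLE, upper-quartile and no scaling, other filters, DESeq2 1.42.0, voom of limma 3.58.1, a replicate block, and leaving out libraries.

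The genes and lists were chosen with earlier results of these data known. Genes given one by one are the first 3 of each compartment, those at 5 CPM or more in RPC tumour 3, 5 or 6, and those at 0 counts in any library, with the 3 smallest p of each pathway list. Collagen genes of the matrix list were added outside this rule. Levels per kb used merged GENCODE vM21 exons. Promoters came from RefSeq on GRCm38.p6. The counts are on mm9 and give no coordinates. The result of 1 cell type list is not reported here.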

Additional observations from a re-analysis of the deposited data

Results flagged for a closer look

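In 9 of 74 groups (1 gene in the 7 tumours of 1 genotype), the highest or lowest tumour stood far from the rest. The rule used would flag about 1 in 20 groups of independent, normally distributed values. CPM values were not shown to be so, and many of the genes were related, so 9 of 74 cannot be set against that rate. Kdr, the VEGF receptor gene, was at 82.8 CPM in RPC tumour 5 with 33.1 CPM in the next RPC tumour, and Lum, the lumican gene, was at 8.02 CPM in the same tumour with 2.19 CPM next. RPC tumour 2 was highest for the adhesion gene Esam (50.3 CPM, next 20.6 CPM) and the matrix gene Mgp (313 CPM, next 110.0 CPM).

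In RP tumours, Egfl7 was at 39.2 CPM in tumour 7 (next 19.3 CPM), Flt1 at 31.2 CPM in tumour 1 (next 17.6 CPM), Dcn at 52.9 CPM in tumour 6 (next 22.7 CPM) and Lum at 6.21 CPM in tumour 3 (next 2.54 CPM). The ETS factor gene Erg was lowest in RP tumour 3, at 4.31 CPM with 9.79 CPM in the next tumour.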

How the results depend on the processing

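The count of 0 called genes among the 37 held under every alternative run (36 tested with at least 1 CPM in at least 7 libraries), with 0 to 4 of them at an unadjusted p under 0.05 except for limma-voom, where 25 were. The median log2 fold change of the 37 was -2.39 with limma-voom and -1.90 with the replicate block, and between -1.28 and -0.52 without any 1 library. The labels do not say whether the numbers shared by RP and RPC tumours pair them. For each tested gene, the mean of its genotype was first subtracted from log2(CPM + 0.5). The remaining deviations of same-numbered tumours correlated between -0.06 and 0.30, with 3 of 7 pairs over 0.1. By these deviations, 2 RP tumours matched their own number best. Such correlations cannot show whether same-numbered tumours shared a litter or a batch. Called pathway genes numbered 6 with DESeq2, 1 with the replicate block, 1 without RPC tumours 3, 5 and 6, and 0 to 5 without any 1 library, against 2. With the replicate block Pdgfa lost its call (adjusted p = 0.0567) and Ets1 was called.

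Signs turned without RPC tumours 3, 5 and 6 for Pecam1 (0.15), Cdh5 (0.64), Tie1 (0.15), Cldn5 (0.40), Egfl7 (0.30), Eng (0.056), Esam (0.49), Dcn (0.60), Postn (0.40), Mgp (0.0088), Tagln (0.037), Sparc (0.087) and Pdgfc (-0.16). Kdr turned to -0.34 with limma-voom and -0.56 with the replicate block, and Pdgfc to -0.019 with limma-voom. Without any 1 library, values ran from -0.88 to 0.056 for Cdh5, -0.42 to 0.51 for Kdr (lowest without RPC tumour 5), -1.02 to 0.097 for Cldn5, -0.94 to 0.0088 for Esam, -0.88 to 0.20 for Dcn, -1.56 to 0.13 for Lum and -0.16 to 0.45 for Pdgfc. The cause of these turns was not tested. Of the other log2 fold changes of the 37 genes and the named pathway genes, 1341 kept direction and call, 13 lost a call and 13 gained one. The count of 26 genes below every other library was the same without a scaling factor. With 10060969 counts in RPC tumour 3, levels under 0.314 CPM could not be told from 0.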
